A study of Oryza sativa Japonica Group with 24 samples.

Results

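Anthers of short-day (SD) and long-day (LD) rice plants were compared at 04:00, in the dark hours before dawn, across all expressed genes. The comparison used 4 of the 24 RNA-seq libraries of the series, 2 biological replicates per photoperiod, and it covered every locus with enough counts, 23332 of 55986 in the file. The plants were wild-type *Oryza sativa* ssp. *japonica* of one variety, grown in paddy fields. The study took anthers at the first pollen mitosis as judged by anther length. Whether SD and LD anthers were at exactly the same stage was not tested here. LD plants had natural daylight of about 14 h, and SD plants had 12 h because black cloth covered them at the end of each natural day from panicle initiation onward. Whole anthers were sampled, so fewer cells of a type and less RNA per cell cannot be told apart, and the number of plants behind a replicate was not given in the sources used here.

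The plant circadian clock is a set of genes that repress one another in turn. In *Arabidopsis* the MYB-related repressors CCA1 and LHY peak around dawn, pseudo-response regulators (PRRs) follow through the day, and GIGANTEA and the blue-light receptor FKF1 act toward dusk and tie the clock to flowering and day length. In the anther the tapetum feeds the microspores and supplies the lipid precursors of the pollen wall (exine), and pollen after mitosis imports sugar and stores starch.

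The 4 libraries held 25914422 and 18682355 counts in SD anthers and 20582541 and 21038251 counts in LD anthers. Levels are given as CPM, read counts relative to a library size scaled by the trimmed mean of M values (TMM). Across genes, log2 CPM correlated at 0.966 between the SD replicates and at 0.986 between the LD replicates, a description in which all points share the libraries. The SD replicates were further apart than the LD replicates, which does not show which of the SD libraries was unusual. Of 16245 genes that reached 5 CPM in an SD library, 210 differed at least 4-fold between the SD replicates, and 208 of these were higher in replicate 1. The same gap was found for 13 of 16668 genes between the LD replicates. The time labels were checked with *OsCAB1R* (LOC_Os09g17740), a chlorophyll a/b-binding protein gene of green tissue that follows light. With CPM scaled over all 24 libraries, as for all levels at other times, it was at 2.36 to 14.5 CPM in all 8 libraries of 20:00 and 00:00 and at 119.7 to 722 CPM in all 12 libraries of 08:00 to 16:00, in both photoperiods. The 4 libraries of 04:00 lay between these ranges, at 15.8 and 19.9 CPM in SD anthers and 49.5 and 45.4 CPM in LD anthers. In a table of read totals from the study the LD rows match the count columns only one time slot later, by which the LD libraries of 04:00 would be of 00:00. The column labels were kept, and the LD libraries labelled 20:00, which would then be of daylight, had 3.43 and 2.36 CPM of *OsCAB1R*. Every difference at 04:00 rests on these labels.

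At 04:00 more genes were higher in LD anthers than in SD anthers. With a Benjamini-Hochberg adjusted p under 0.05 in edgeR's quasi-likelihood test and at least a 2-fold difference, 3709 genes were called differentially expressed (DEGs), which is 15.9% of the 23332 genes tested. Of the DEGs, 2749 (11.8% of genes tested) were higher in LD anthers and 960 (4.11%) were higher in SD anthers. The median log2 fold change over all genes tested was 0.0071, and the median absolute log2 fold change was 0.44. The fitted log2 fold change is written as log2 SD/LD from here on, positive where SD was higher, with its standard error (SE) as implied by the test. Scaling by library totals in place of TMM moved the median over all genes by 0.17 and gave 1634 DEGs higher in SD and 2231 higher in LD, so that the SD share of DEGs was 42.3% against 25.9%. Both scalings left the larger number in LD anthers. Without LD replicate 1 only 689 genes were called, and without LD replicate 2 only 1190, the spread then being estimated from the SD pair alone. In both cases most were higher in LD (628 and 918).

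**Figure D1:**
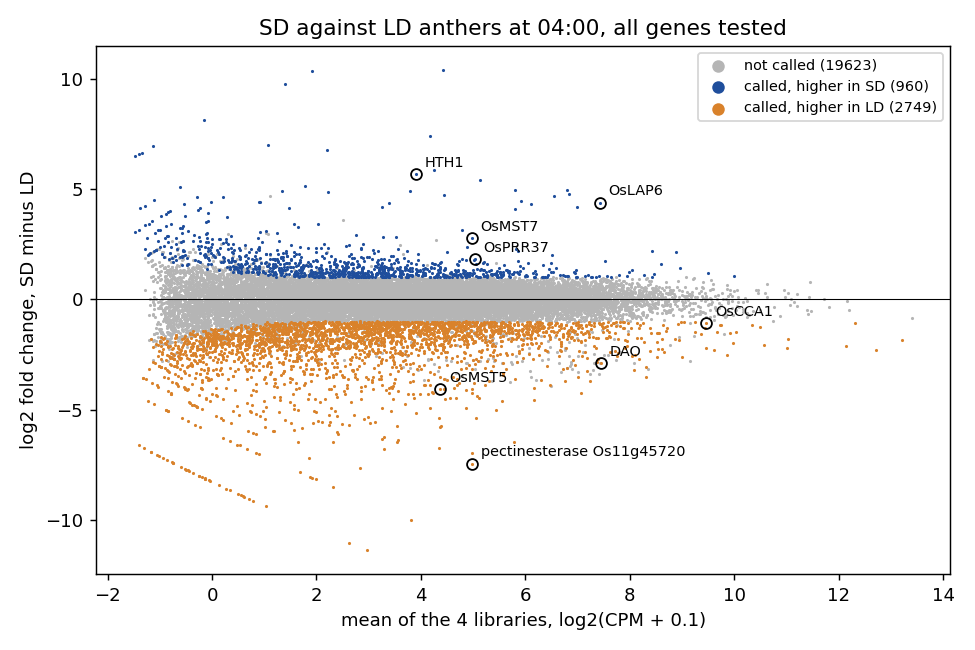
Each point is one of the 23332 genes tested at 04:00, with the mean of the 4 libraries on the x axis (log2 of CPM plus 0.1) and the fitted log2 fold change of SD over LD anthers on the y axis. The 2749 genes called higher in LD (orange) outnumber the 960 called higher in SD (blue), and circled genes are described in the text.

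Large differences made up a bigger share of the DEGs higher in LD than of those higher in SD. Among DEGs higher in LD, 1707 differed 2- to 4-fold, 823 differed 4- to 16-fold, and 219 (7.97%) differed 16-fold or more. Among DEGs higher in SD the corresponding numbers were 763, 153 and 44 (4.58%). The lower group held 3 counts or fewer in both libraries for 143 of the DEGs higher in LD and for 52 of those higher in SD. The share called was lower among strongly expressed genes. It was 22.1% of genes at 1 to 10 CPM, 11.0% at 10 to 100 CPM and 10.5% at 100 CPM or more. In the strongest class 185 of 2107 genes were higher in LD and 36 were higher in SD.

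Clock genes differed between the photoperiods at 04:00 in opposite directions. Of the 12 clock and light genes, all 12 were tested, 4 were higher in SD anthers and 2 in LD anthers, beside 4.11% and 11.8% of all genes tested, and the median log2 fold change was 0.32. *OsCCA1/OsLHY* (LOC_Os08g06110), the dawn-phased MYB repressor, had 495 and 416 CPM in SD anthers and 1001 and 906 CPM in LD anthers. Both LD libraries were above both SD libraries, about 2-fold on average (log2 SD/LD −1.06, SE 0.16, adjusted p = 0.00782, edgeR). *OsCAB1R*, which the clock and light both drive, was also higher in LD anthers before any light. It had 16.0 and 20.1 CPM in SD anthers and 50.8 and 46.7 CPM in LD anthers, again without overlap (log2 SD/LD −1.43, SE 0.15, adjusted p = 0.00384).

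The 4 clock genes called higher in SD anthers were *OsGI*, *OsPRR37*, *OsTOC1/OsPRR1* and *OsFKF1*. *OsGI* (LOC_Os01g08700), the rice GIGANTEA, had 94.3 and 87.4 CPM in SD anthers and 30.0 and 37.5 CPM in LD anthers. Its SD values were more than double its LD values (log2 SD/LD 1.43, SE 0.15, adjusted p = 0.00368). *OsPRR37* (LOC_Os07g49460), a pseudo-response regulator that delays heading in long days, had 43.5 and 57.8 CPM in SD anthers and 13.4 and 15.3 CPM in LD anthers. The groups were far apart relative to the gap within either pair (log2 SD/LD 1.82, SE 0.18, adjusted p = 0.00332). *OsTOC1/OsPRR1* (LOC_Os02g40510) had 30.2 and 28.9 CPM in SD anthers and 14.7 and 14.8 CPM in LD anthers, a difference that lay at the 2-fold threshold (log2 SD/LD 1.002, SE 0.13, adjusted p = 0.00560). *OsFKF1* (LOC_Os11g34460) was a weak transcript at this time, with 3.62 and 3.94 CPM in SD anthers and 1.60 and 0.859 CPM in LD anthers, and it too was called higher in SD (log2 SD/LD 1.62, SE 0.37, adjusted p = 0.0240).

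**Figure D2:**
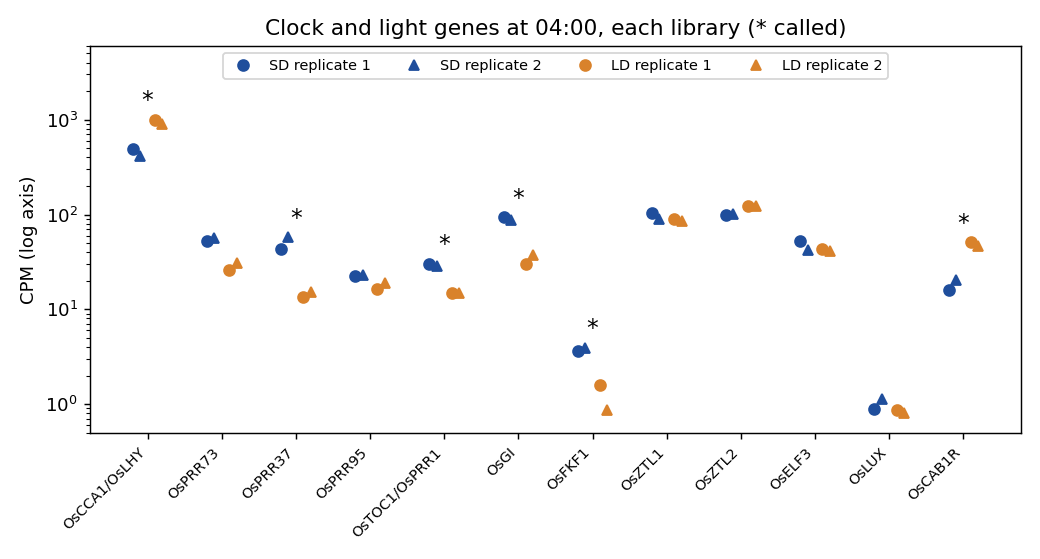
CPM on a log axis of the 12 clock and light genes in each of the 4 libraries at 04:00, with SD in blue, LD in orange, replicate 1 as circles and replicate 2 as triangles. Asterisks mark the 6 called genes; *OsCCA1/OsLHY* and *OsCAB1R* are higher in LD, and *OsPRR37*, *OsTOC1/OsPRR1*, *OsGI* and *OsFKF1* are higher in SD.

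The remaining 6 genes were not called. *OsPRR73* (LOC_Os03g17570) had 52.1 and 57.0 CPM in SD anthers and 25.9 and 30.5 CPM in LD anthers and passed the p threshold but fell just short of 2-fold (log2 SD/LD 0.95, SE 0.14, adjusted p = 0.00733). With library totals its log2 fold change was 1.12 and it was called. *OsZTL1*, *OsZTL2*, *OsELF3*, *OsPRR95* and *OsLUX* had log2 SD/LD values between −0.31 (*OsZTL2*) and 0.38 (*OsPRR95*), with adjusted p values from 0.0892 (*OsPRR95*) to 0.641 (*OsLUX*). The call of *OsCCA1/OsLHY* rested on the fold threshold as well: with library totals its log2 fold change was −0.89, and with each library left out it ranged from −0.93 to −1.19, called in 1 of the 4 cases. *OsTOC1/OsPRR1* lost its call with RLE size factors, and with each library left out its log2 fold change ranged from 0.97 to 1.05. The corresponding ranges were 1.27 to 1.60 for *OsGI*, 1.62 to 2.01 for *OsPRR37*, 1.24 to 2.13 for *OsFKF1* and −1.58 to −1.27 for *OsCAB1R*. Most of the clock and light calls were nevertheless lost without LD replicate 1, and some without LD replicate 2, the spread then being estimated from the SD pair alone.

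The levels at 00:00 and 08:00 frame those of 04:00. *OsCCA1/OsLHY* had 74.3 and 53.8 CPM in SD anthers and 124 and 106 CPM in LD anthers at 00:00 and 620.4 and 736 CPM in SD anthers and 843 and 739 CPM in LD anthers at 08:00. All 4 libraries of 04:00 were above those of 00:00, and only the LD libraries of 04:00 were above those of 08:00 of the same photoperiod. *OsGI* had 234 and 122 CPM in SD anthers and 79.7 and 75.5 CPM in LD anthers at 00:00 and 128 and 122 CPM in SD anthers and 168 and 159.9 CPM in LD anthers at 08:00, so that its levels at 04:00 were below those at both times. *OsCAB1R* had its lowest mean of the day in both photoperiods at 00:00, with 5.11 and 5.42 CPM in SD anthers and 2.89 and 2.54 CPM in LD anthers, where both SD libraries were above both LD libraries, and the order was the reverse at 04:00. In the fit of all 24 libraries the change of its SD–LD difference from 00:00 to 04:00 was −2.37 on the log2 scale (SE 0.37, edgeR adjusted p = 0.0422), one of 7 genes of 25498 that passed this test. With SD replicate 1, SD replicate 2 or LD replicate 1 of 04:00 left out it no longer passed, and the number of genes that passed was 99 with DESeq2 and 1045 when all genes with at least 1 count were kept.

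**Figure D3:**
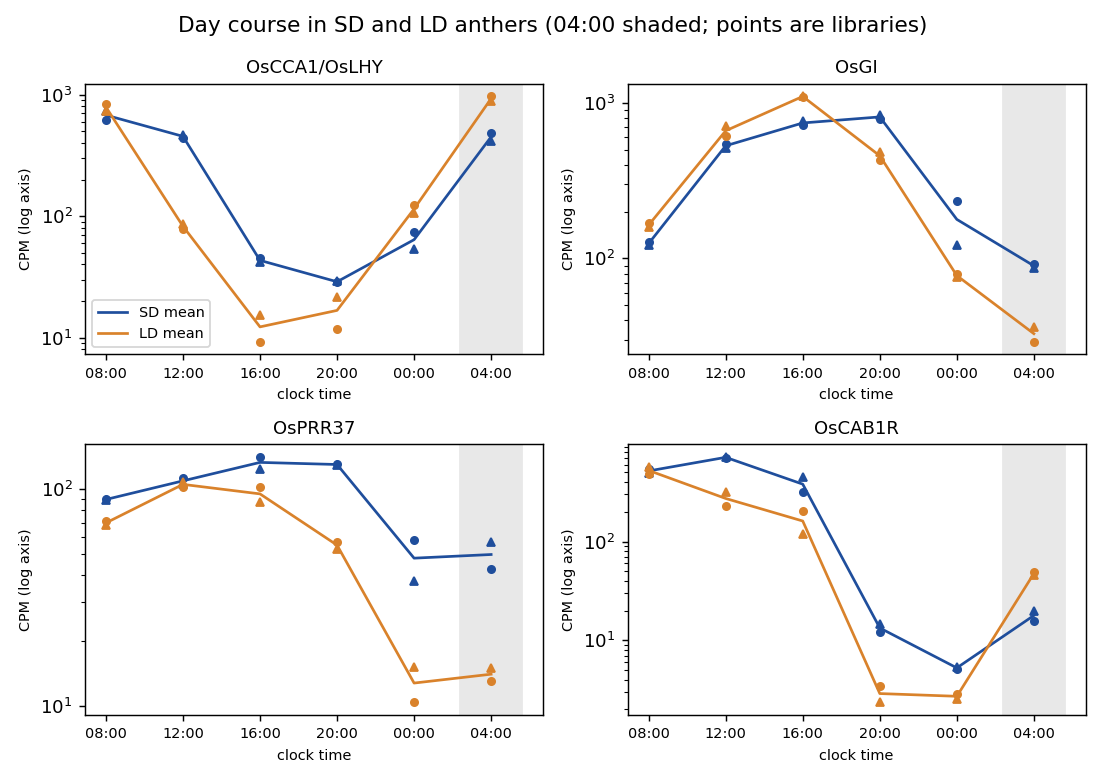
CPM (log axis) of 4 clock and light genes against clock time from 08:00 to 04:00; points are libraries (circles replicate 1, triangles replicate 2), lines join the means of the SD (blue) and LD (orange) replicates, and 04:00 is shaded. At 04:00 *OsCCA1/OsLHY* and *OsCAB1R* are above their 00:00 level and higher in LD, whereas *OsGI* and *OsPRR37* are higher in SD.

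Markers of the tapetum and of late pollen also differed. The genes examined were of 3 kinds: 5 tapetum and exine genes, 2 late pollen genes, and 10 genes annotated as pollen allergens, which are wall-loosening and secreted proteins of grass pollen. Among the tapetum and exine genes, 3 of 5 were higher in SD anthers and none in LD, beside 4.11% and 11.8% of all genes tested. The study had already listed these 3 as changed between the photoperiods at every time in these libraries. Their number is therefore not independent evidence. *OsLAP6* (LOC_Os10g34360), a polyketide synthase of exine precursors, had 451 and 203 CPM in SD anthers and 5.47 and 25.6 CPM in LD anthers (log2 SD/LD 4.39, SE 0.79, adjusted p = 0.0131). *OsABCG15* (LOC_Os06g40550), which exports those precursors from the tapetum, had 27.7 and 7.94 CPM in SD anthers and 0.928 and 1.01 CPM in LD anthers (log2 SD/LD 4.20, SE 0.67, adjusted p = 0.00975). *HTH1* (LOC_Os04g48400), required for the anther cuticle, had 51.9 and 6.35 CPM in SD anthers and 0.464 and 0.657 CPM in LD anthers (log2 SD/LD 5.69, SE 1.15, adjusted p = 0.0175). In each of the 3 genes SD replicate 1 was well above SD replicate 2, which was itself above both LD libraries. Without SD replicate 1, log2 SD/LD was 3.71 for *OsLAP6*, 3.03 for *OsABCG15* and 3.49 for *HTH1*, each still called. Without LD replicate 1 all 3 lost their call, and without LD replicate 2 *OsABCG15* and *HTH1* did. *WDA1* (LOC_Os10g33250), of anther wax synthesis, and *Osg1* (LOC_Os01g71930), a tapetal glucanase, were not called, with log2 SD/LD values of 0.24 and −0.45 (adjusted p = 0.283 and 0.159).

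The late pollen genes went the other way. *OsMATL* (LOC_Os03g27610), a phospholipase of pollen, had 11.7 and 2.46 CPM in SD anthers and 30.8 and 44.6 CPM in LD anthers, and DESeq2, the fit of 24 libraries, the replicate block and the fits without either LD library did not call it (log2 SD/LD −2.39, SE 0.63, adjusted p = 0.0356, edgeR). Its log2 SD/LD was −3.93 without SD replicate 1 and −1.67 without SD replicate 2. *OsSUT1* (LOC_Os03g07480), a sucrose transporter needed for pollen function, had 6.68 and 4.56 CPM in SD anthers and 35.2 and 33.1 CPM in LD anthers (log2 SD/LD −2.59, SE 0.21, adjusted p = 0.00251). None of the 10 pollen allergen genes was called, although all 10 had negative log2 SD/LD values, with a median of −2.26. Their summed level was 532 CPM in SD replicate 1 but 47.9 CPM in SD replicate 2, and it was 1008 and 1589 CPM in the LD libraries. SD replicate 1 exceeded SD replicate 2 in all 10, at least 8.05-fold in each. When SD replicate 1 was left out all 10 were called higher in LD, and when SD replicate 2 was left out 7 were. The part of such pollen and tapetum transcripts in the other differences was not tested.

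**Figure D4:**
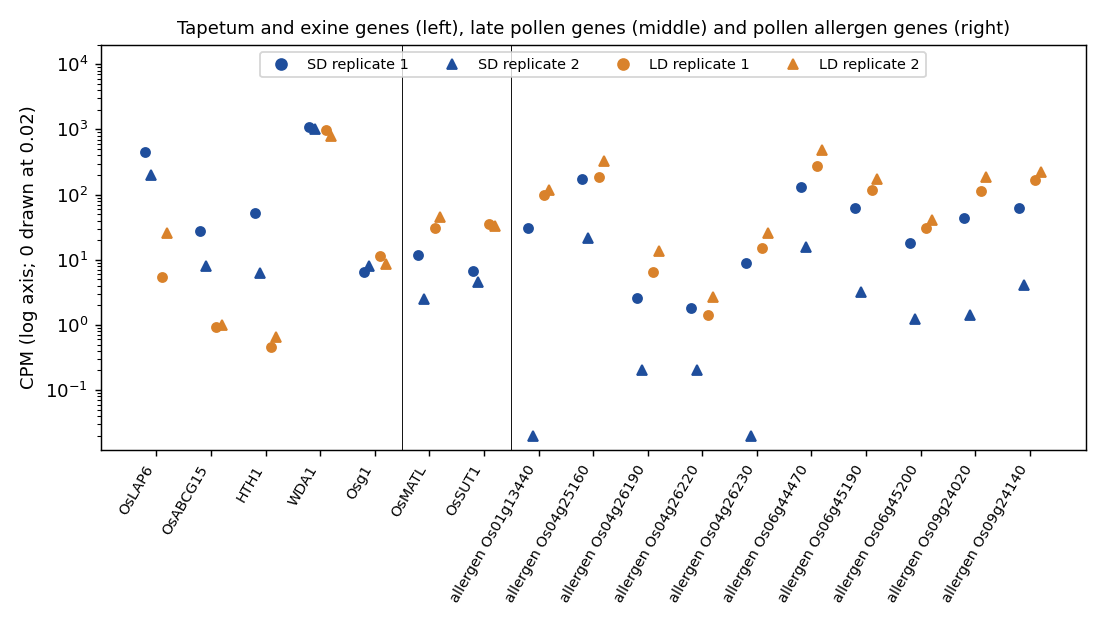
CPM on a log axis (zero drawn at 0.02) of 5 tapetum and exine genes, 2 late pollen genes and 10 pollen allergen genes in the 4 libraries at 04:00; colours and symbols are SD blue, LD orange, replicate 1 circles, replicate 2 triangles. SD replicate 1 lies above SD replicate 2 in all 10 allergen genes and in *OsLAP6*, *OsABCG15* and *HTH1*.

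The genes that the study had listed as both anther-enriched and changed between the photoperiods were split in the same way. All 51 were called at 04:00, 21 higher in SD and 30 higher in LD. The study chose this list on these libraries, so its counts are not independent evidence. The summed level of the 30 LD-higher members was 215 and 80.7 CPM in SD anthers against 1150.4 and 1501 CPM in LD anthers. In 28 of these 30 SD replicate 1 lay above SD replicate 2. That both lay below both LD libraries follows from the members being called. The SD and LD libraries did not overlap in any of the 3709 DEGs, nor in 71.8% of genes tested. The 21 SD-higher members summed to 2144 and 1230.2 CPM in SD anthers against 188 and 212 CPM in LD anthers.

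Some of these members were close to absent from SD anthers, and others were far lower in LD anthers. A pectinesterase (LOC_Os11g45720), an enzyme that demethylates pectin in the cell wall, had 0.610 and 0 CPM in SD anthers and 55.6 and 68.7 CPM in LD anthers (log2 SD/LD −7.45, SE 0.63, adjusted p = 0.00253). Another pectinesterase (LOC_Os04g38560) had 0.861 and 0 CPM in SD anthers and 55.5 and 69.4 CPM in LD anthers, and a plasma membrane proton ATPase (LOC_Os02g55400) had 2.08 and 0.154 CPM in SD anthers and 103 and 116 CPM in LD anthers. Both were close to 0 in SD replicate 2, with log2 SD/LD of −6.98 and −6.49 (adjusted p = 0.00332 and 0.00411, edgeR). In the other direction a cytochrome P450 (LOC_Os04g48210) had 179 and 36.3 CPM in SD anthers and 0.464 and 6.47 CPM in LD anthers (log2 SD/LD 4.95, SE 1.17, adjusted p = 0.0268), and the subtilisin-like protease *OsSub42* (LOC_Os04g45960) had 379 and 61.3 CPM in SD anthers and 7.06 and 9.14 CPM in LD anthers (log2 SD/LD 4.76, SE 0.86, adjusted p = 0.0136). Without SD replicate 1, log2 SD/LD was 3.38 for the P450 and 2.92 for *OsSub42*.

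Where every library of the lower group held 3 counts or fewer, only a bound on the fold could be given, computed against the CPM of 3 counts in its shallower library. The genes given here were picked among those with an annotation in the study. The polygalacturonase LOC_Os06g40890, which cuts pectin, had no count in either SD library and 7.68 and 16.6 CPM in LD anthers, at least 79.1-fold higher. LOC_Os12g35710, a protein of unknown function, was at least 90.7-fold higher in LD anthers, and the pectinesterase LOC_Os03g28090 at least 63.4-fold. Higher in SD anthers in this way was a GDSL lipase (LOC_Os02g01980), with 84.2 and 0.871 CPM in SD anthers and 0.0516 and 0 CPM in LD anthers. Its SD mean was at least 275-fold above the LD floor, but nearly all of it came from SD replicate 1, and the fit of 24 libraries did not call it. A ribosome-inactivating protein gene (LOC_Os03g47896) was at least 57.6-fold higher in SD, also mostly in replicate 1, with 16.7 and 1.18 CPM.

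Sugar transporters that differed were higher in LD anthers, with *OsMST7* the exception. In the carbohydrate sheet of the study, 109 of 410 tested genes were higher in LD and 12 in SD. The functional lists described from here on were drawn by words from the annotations of the study, which had collected genes called in these libraries at any time of day. That choice favours called genes, and the counts are given as descriptions beside 11.8% higher in LD and 4.11% higher in SD over all genes tested. Of 17 sugar transporters, 6 were higher in LD and 1 in SD, with a median log2 fold change of −0.44. *OsMST7* (LOC_Os01g38680), a monosaccharide transporter, had 46.3 and 62.9 CPM in SD anthers and 9.23 and 6.67 CPM in LD anthers (log2 SD/LD 2.78, SE 0.23, adjusted p = 0.00251). *OsMST5* (LOC_Os08g08070), of the same family, had 4.09 and 0.307 CPM in SD anthers and 35.5 and 42.3 CPM in LD anthers (log2 SD/LD −4.06, SE 0.78, adjusted p = 0.0157), and *OsMST4* (LOC_Os03g11900) had 2.08 and 3.43 CPM in SD anthers and 16.7 and 12.4 CPM in LD anthers (log2 SD/LD −2.42, SE 0.29, adjusted p = 0.00505). *OsMST3*, *OsMST6*, *OsSUT1* and *OsSUT3* completed the 6. *OsMST8* (LOC_Os01g38670), a sugar transporter under CSA in the anther, had 197 and 369 CPM in SD anthers and 119.8 and 163 CPM in LD anthers and was not called (adjusted p = 0.0581).

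Among genes of sucrose cleavage and synthesis, 3 of 24 were higher in LD and none in SD, an LD share near the 11.8% of all genes tested. *OSINV3* (LOC_Os02g01590), a vacuolar invertase, had 53.7 and 53.8 CPM in SD anthers and 187 and 174 CPM in LD anthers (log2 SD/LD −1.75, SE 0.13, adjusted p = 0.00251). *OSINV1* (LOC_Os09g08072) had 18.4 and 21.0 CPM in SD anthers and 43.2 and 37.8 CPM in LD anthers and lost its call with library totals, where its log2 fold change was −0.87. In starch metabolism 6 of 29 were higher in LD and none in SD. They included an alpha-amylase (LOC_Os02g52700), with 29.6 and 12.3 CPM in SD anthers and 189 and 191 CPM in LD anthers, and the granule-bound starch synthase *Wx* (LOC_Os06g04200), with 38.3 and 23.7 CPM in SD anthers and 65.8 and 95.0 CPM in LD anthers. Beta-amylases made up the remaining 4, among them LOC_Os03g22790 (log2 SD/LD −1.97, SE 0.15, adjusted p = 0.00251). When SD replicate 1 was left out, 11 starch genes were called higher in LD, and when either LD library was left out, 2 were.

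Glycolysis and the pentose phosphate pathway were split, with 3 of 30 higher in SD and 5 in LD. A pyruvate kinase (LOC_Os03g46910) had 53.3 and 65.4 CPM in SD anthers and 23.8 and 30.7 CPM in LD anthers, higher in SD (log2 SD/LD 1.12, SE 0.18, adjusted p = 0.00932). A glyceraldehyde-3-phosphate dehydrogenase, annotated *GADPH* (LOC_Os03g03720), had 21.6 and 23.7 CPM in SD anthers and 90.9 and 76.2 CPM in LD anthers, higher in LD (log2 SD/LD −1.89, SE 0.14, adjusted p = 0.00251), and the aldolase *OsAld-Y* (LOC_Os06g40640) was higher in LD as well, at −2.42. The median of the list was −0.05 and changed sign with library totals.

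In the transport sheet of the study as a whole, 192 of 636 tested genes were higher in LD and 27 in SD. Aquaporins were mostly higher in LD. Of 23 aquaporins, the water and solute channels of plant membranes, 16 were higher in LD and 1 in SD, with a median log2 fold change of −1.37. *OsPIP2;5* (LOC_Os07g26660) had 0.825 and 0.666 CPM in SD anthers and 14.2 and 12.8 CPM in LD anthers (log2 SD/LD −4.15, SE 0.23, adjusted p = 0.00203). The abundant aquaporin LOC_Os02g41860 had 145 and 116 CPM in SD anthers and 702 and 648 CPM in LD anthers (log2 SD/LD −2.37, SE 0.17, adjusted p = 0.00241). Both LD libraries were several times above both SD libraries in each, and how reads shared by close family members were counted was not stated. The silicon channel *Lsi6* (LOC_Os06g12310) had 16.1 and 19.9 CPM in SD anthers and 61.2 and 48.7 CPM in LD anthers. The single aquaporin higher in SD was LOC_Os01g02190, with 51.6 and 46.8 CPM in SD anthers and 3.35 and 7.78 CPM in LD anthers (log2 SD/LD 3.14, SE 0.36, adjusted p = 0.00450). With either LD library left out, 9 or 10 aquaporins were called higher in LD.

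Nutrient carriers shared that direction. Of 46 nitrate and peptide transporters, 18 were higher in LD and none in SD, for example the peptide transporter LOC_Os05g35594, with 6.07 and 7.17 CPM in SD anthers and 31.9 and 33.3 CPM in LD anthers. Of 11 amino acid transporters, 6 were higher in LD, led by the permease LOC_Os01g42234, with 30.9 and 29.2 CPM in SD anthers and 119 and 115 CPM in LD anthers (log2 SD/LD −1.96, SE 0.12, adjusted p = 0.00241), but library totals left 3. Of 37 potassium and monovalent cation transporters, 16 were higher in LD and 1 in SD. Among these *OsHAK21* (LOC_Os03g37930), a potassium transporter of salt tolerance, had 0.144 and 0.205 CPM in SD anthers and 2.73 and 3.38 CPM in LD anthers, and the potassium channel *OsKAT3* (LOC_Os02g14840) was the member higher in SD, with 3.19 and 3.07 CPM in SD anthers and 1.19 and 1.16 CPM in LD anthers. Phosphate was represented by *OsPht1;8* (LOC_Os10g30790), an uptake transporter, and *SPDT* (LOC_Os06g05160), which directs phosphorus to grains, with log2 SD/LD values of −1.53 and −1.52 (adjusted p = 0.00366 and 0.00251, edgeR).

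Metal transporters were less uniform, with 15 of 51 higher in LD and 2 in SD. The 2 were *OsMTP9* (LOC_Os01g03914), a manganese transporter, with 137 and 143 CPM in SD anthers and 41.4 and 63.1 CPM in LD anthers (log2 SD/LD 1.42, SE 0.21, adjusted p = 0.00845), and the boron transporter gene *BOR2* (LOC_Os01g08020), with 14.0 and 16.5 CPM in SD anthers and 4.74 and 6.57 CPM in LD anthers (log2 SD/LD 1.43, SE 0.22, adjusted p = 0.00851). The ABC transporters had 2 of 22 higher in SD, *OsABCG15* and LOC_Os02g18670, and 4 in LD. LOC_Os02g18670 had 17.8 and 21.1 CPM in SD anthers and 3.66 and 4.29 CPM in LD anthers (log2 SD/LD 2.29, SE 0.19, adjusted p = 0.00251). Of 8 auxin efflux carriers, *OsPIN3t* (LOC_Os01g45550) and *OsPIN1* (LOC_Os02g50960) were higher in LD, at −1.54 and −1.39, and the log2 SD/LD values of the other 6 were also negative.

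**Figure D5:**
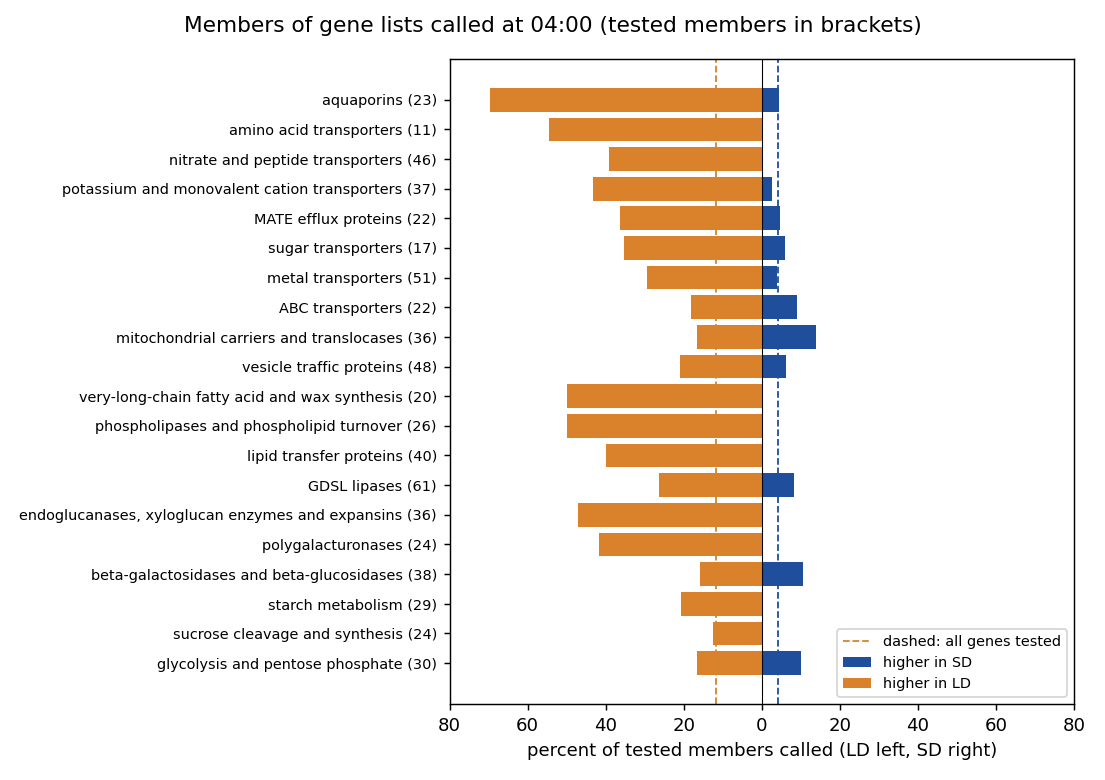
Percent of tested members called higher in LD (orange, to the left) and higher in SD (blue, to the right) at 04:00 for 20 lists of transport, lipid, wall and sugar genes, with the number of tested members in brackets. Dashed lines mark the shares over all genes tested, 11.8% in LD and 4.11% in SD; 16 of 23 aquaporins are called higher in LD.

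Wall enzymes were higher in LD anthers where they were called, with one list excepted. Of 36 endoglucanases, xyloglucan enzymes and expansins, 17 were higher in LD and none in SD. The endoglucanase LOC_Os09g36060 had 52.8 and 59.2 CPM in SD anthers and 222 and 179.6 CPM in LD anthers (log2 SD/LD −1.84, SE 0.16, adjusted p = 0.00274). Of 24 polygalacturonases 10 were higher in LD, and of 8 tested pectinesterases and pectate lyases (of 11 listed) 6 were. A pectate lyase (LOC_Os06g38510) with 58.3 and 0.154 CPM in SD anthers and 281 and 341 CPM in LD anthers was not called, the SD replicates being far apart (adjusted p = 0.158). *OsGLN2* (LOC_Os01g71670), a beta-1,3-glucanase, had 9.58 and 10.7 CPM in SD anthers and 109.5 and 68.7 CPM in LD anthers (log2 SD/LD −3.14, SE 0.25, adjusted p = 0.00251). The cellulose synthase-like gene *CSLD3* (LOC_Os08g25710), of tip-growing cells, had 0.502 and 0.307 CPM in SD anthers and 23.6 and 22.1 CPM in LD anthers. Beta-galactosidases and beta-glucosidases were the exception, with 4 of 38 higher in SD and 6 in LD. In SD the beta-galactosidase LOC_Os01g34920 stood out, with 490.4 and 668 CPM in SD anthers and 189 and 194 CPM in LD anthers (log2 SD/LD 1.59, SE 0.18, adjusted p = 0.00447).

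In the lipid sheet of the study, 66 of 221 tested genes were higher in LD and 7 in SD. Of 20 genes of very-long-chain fatty acid and wax synthesis, 10 were higher in LD and none in SD. The 3-ketoacyl-CoA synthase LOC_Os02g49920, an enzyme of fatty acid elongation, had 10.2 and 6.40 CPM in SD anthers and 108 and 96.2 CPM in LD anthers (log2 SD/LD −3.62, SE 0.24, adjusted p = 0.00241). Of 26 genes of phospholipases and phospholipid turnover, 13 were higher in LD. A phospholipase D (LOC_Os09g25390) had 69.8 and 67.1 CPM in SD anthers and 573 and 561 CPM in LD anthers, with tight replicates on both sides (log2 SD/LD −3.05, SE 0.14, adjusted p = 0.00203). Of 40 tested lipid transfer proteins 16 were higher in LD and none in SD, among them *LTPL12* (LOC_Os12g02320), with 39.9 and 46.2 CPM in SD anthers and 231 and 205 CPM in LD anthers. GDSL lipases, a family of secreted esterases, had 16 of 61 higher in LD and 5 in SD. In the plastid isoprenoid pathway 4 of 8 were higher in LD, including *OsDXS* (LOC_Os07g09190), the entry enzyme, with 42.2 and 48.2 CPM in SD anthers and 118 and 108 CPM in LD anthers. Of the sterol list 4 of 12 were higher in LD. The oxidosqualene cyclase *OSC4* (LOC_Os08g43290) of the anther list, with 352 and 128 CPM in SD anthers and 10.6 and 15.7 CPM in LD anthers, was higher in SD (log2 SD/LD 4.19, SE 0.52, adjusted p = 0.00533).

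Photoperiod and fertility genes named by the study were mixed. Of 22, 4 were higher in SD and 6 in LD, beside 4.11% and 11.8% of all genes tested, with a median log2 fold change of 0.10. The largest values in each direction were those of *HTH1* (5.69) and *OsMST5* (−4.06), both described above. The study had named some members, these included, as changed in these libraries, so the counts are descriptions. *CSA* (LOC_Os01g16810), the MYB factor whose mutants are male sterile in short days, had 90.0 and 120.3 CPM in SD anthers and 78.6 and 75.9 CPM in LD anthers and was not called (log2 SD/LD 0.44, SE 0.17, adjusted p = 0.0945). *OsUgp1* (LOC_Os09g38030), a UDP-glucose pyrophosphorylase needed for pollen, had 681 and 803 CPM in SD anthers and 589 and 544 CPM in LD anthers and was not called either (log2 SD/LD 0.39, SE 0.15, adjusted p = 0.0971). *DAO* (LOC_Os04g39980), which oxidizes auxin in anthers and other floral tissue, had 37.0 and 46.0 CPM in SD anthers and 306 and 309 CPM in LD anthers. The LD libraries were nearly equal and averaged 7.42 times the SD level (log2 SD/LD −2.89, SE 0.16, adjusted p = 0.00203). *OsGA20ox3* (LOC_Os07g07420), a gibberellin synthesis enzyme, had 124 and 83.6 CPM in SD anthers and 324 and 425 CPM in LD anthers (log2 SD/LD −1.85, SE 0.24, adjusted p = 0.00574), and *OsFRDL1* (LOC_Os03g11734), a citrate transporter, had 9.83 and 3.23 CPM in SD anthers and 27.7 and 26.9 CPM in LD anthers (log2 SD/LD −2.04, SE 0.46, adjusted p = 0.0234). *CAP1* (LOC_Os02g04840), an arabinokinase of pollen, passed the p threshold below 2-fold, at 0.70, as did the hexokinase *OsHXK5* (LOC_Os05g44760) at −0.54. The secondary wall genes *OsCesA4* and *OsSWN1* were not called (0.45 and 0.37, adjusted p = 0.241 and 0.155), and neither were *OsRacD*, *Psd1*, *OsBOR4* and *OsGSL5*, whose log2 SD/LD values lay between −0.49 (*Psd1*) and 0.21 (*OsRacD*).

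Of the 30 transcription factor hub genes of the study, 2 were higher in SD, 8 in LD and 20 were not called. The median log2 SD/LD was 0.51, with positive values for 20 of 30. The study picked hub genes in part for a strong association with photoperiod in its libraries, those of 04:00 included. That choice favours SD–LD differences, and the counts and median are given as descriptions. *CSA*, *OsUgp1*, *OsCesA4*, *CAP1*, *DAO* and *OsSWN1* were hub genes of the study too. The 2 called higher in SD were MYB factors, LOC_Os06g40330, with 49.9 and 52.2 CPM in SD anthers and 27.0 and 23.6 CPM in LD anthers, and LOC_Os01g50720, with 50.7 and 38.5 CPM in SD anthers and 23.6 and 19.9 CPM in LD anthers. Both were near 2-fold, at 1.01 and 1.04, and library totals raised the SD number to 8. Of the 8 higher in LD, the C3HC4 zinc finger gene LOC_Os06g09310 differed most, at −2.90 (adjusted p = 0.00299). A NAC factor (LOC_Os03g21060) had 11.1 and 10.4 CPM in SD anthers and 35.4 and 34.8 CPM in LD anthers (log2 SD/LD −1.70, SE 0.13, adjusted p = 0.00251), and the other 6 had log2 SD/LD values between −2.86 and −1.35. The C2H2 gene LOC_Os02g44120 at the lower end was not called by DESeq2 or with the replicate block.

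Some DEGs of 04:00 were DEGs at other times as well, and others were called at 04:00 alone. The 5 other comparisons of SD with LD share no library with that of 04:00, and each had its own fit. Of the 2749 genes higher in LD at 04:00, 1139 were also called higher in LD at 08:00 (43.3% of those tested then, against 10.1% of all genes), 1047 at 12:00 (39.8% against 19.2%), 491 at 20:00 and 169 at 00:00. At 12:00, 586 of the 2631 tested then were called higher in SD, beside 19.5% of all genes. Of the 960 genes higher in SD at 04:00, 300 were also called at 08:00 (32.4% against 7.21%), 241 at 12:00 (25.9% against 19.5%), 62 at 20:00 and 74 at 00:00. At 12:00, 209 of the 929 tested then were called higher in LD, beside 19.2% of all genes. Over all genes tested, 4132 (17.7%) were called at 08:00, 9551 (40.0%) at 12:00, 1172 (4.99%) at 20:00 and 364 (1.56%) at 00:00. At 16:00 edgeR called none, although 7275 genes had an unadjusted p under 0.05 and DESeq2 called 1675, and at 00:00 DESeq2 called 1806. In all, 1372 (49.9%) of the LD-higher genes and 612 (63.7%) of the SD-higher genes were called in that direction at 04:00 alone. Not being called at another time does not mean that the difference was absent then. Over all LD-higher genes the median log2 SD/LD was −1.07 at 00:00 and −0.98 at 08:00. Over all SD-higher genes it was 0.82 at 00:00 and 0.74 at 08:00.

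Whether the difference at 04:00 itself departed from that at other times was tested in a fit of all 24 libraries. Against the mean of the other 5 times, 7278 of 25498 genes (28.5%) differed, 3484 toward SD (13.7%) and 3794 toward LD (14.9%). Of those toward LD, 2574 (67.8%) were higher in LD at 04:00 and higher in SD or level on average at the other times. Of those toward SD, 2420 (69.5%) were higher in SD at 04:00 and higher in LD or level at the others. Picking genes by this difference favours opposite signs, so both counts are descriptions. At 04:00 itself, 1266 (33.4%) of those toward LD and 547 (15.7%) of those toward SD were DEGs. Without 12:00 among the other times, an alternative chosen after seeing the data, 3491 genes differed, of which 3448 were among the 7278 in the same direction. Against 08:00, 2850 genes (11.2%) differed, 1034 toward SD (4.06%) and 1816 toward LD (7.12%), and against 00:00 only 7 (0.0275%), all 7 toward LD. Leaving out 1 library of 04:00 gave as few as 2591 genes against the other times and 488 against 08:00, both without LD replicate 1. At an unadjusted p under 0.05 the 00:00 contrast had 2923 genes, and DESeq2 called 99.

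The lists described above differed in how many members shifted, beside 13.7% of all genes tested toward SD and 14.9% toward LD. Of 20 very-long-chain fatty acid and wax genes, 16 shifted toward LD at 04:00. Their median log2 fold change in this fit was 1.08 at 08:00, 1.83 at 12:00, 0.56 at 16:00, 0.81 at 20:00 and 0.32 at 00:00, but −0.86 at 04:00. Of 66 GDSL lipases 35 shifted toward LD and 2 toward SD, of 49 nitrate and peptide transporters 32 and none, and of 23 aquaporins 14 and none. Toward SD shifted 13 of 36 mitochondrial carriers and translocases, against 5 toward LD, and 16 of 50 vesicle traffic proteins, against 9. In this fit the mitochondrial list had a median log2 SD/LD of −1.12 at 12:00 and 0.003 at 04:00. The vesicle list had −1.16 at 12:00 and 0.04 at 04:00. At the remaining times both medians lay between these values. The pollen allergen genes shifted toward SD in 5 of 10, and their median log2 SD/LD was −6.00 at 08:00, −12.96 at 12:00, −1.76 at 16:00, −4.40 at 20:00, −3.31 at 00:00 and −2.25 at 04:00. In the comparison at 04:00 alone their median was −5.51 without SD replicate 1. The 5 tapetum and exine genes had 1 shift, toward LD, and the 2 late pollen genes had none.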

How the data were processed

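Libraries were sequenced on an Ion Proton. The authors filtered reads on base quality, mapped them with MapSplice to the MSU Nipponbare genome and deposited raw read counts per locus, replicates kept apart. The counting tool, strand and multi-mapped reads were not stated, so near-identical or overlapping loci are uncertain. For LD the series text gives hours of dark and the study's methods hours of light, and the latter were used. In a read table of the study the LD rows match the count columns only when shifted by one time slot; column labels were used.

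Counts of the 4 libraries of 04:00 were fitted with edgeR 4.0.16 (R 4.3.3): filterByExpr, TMM, quasi-likelihood F-test, adjusted p under 0.05 and absolute log2 fold change of at least 1. Standard errors are the absolute log2 fold change over the square root of F. P values set the SD–LD difference against the spread between replicates, with 2 replicates per group. That spread was pooled over SD and LD and drawn toward the spread of other genes. Differences between times were contrasts in a fit of 12 groups and 24 libraries (adjusted p under 0.05). DESeq2 1.42.0, other scalings, filters and thresholds, a replicate block and leaving out libraries were alternatives. On simulated counts for the 04:00 comparison (23332 genes), 99.5% of 200 genes changed 4-fold were recovered. In the libraries themselves none of the 10 pollen allergen genes was called, at a median log2 SD/LD of −2.26 and with SD replicates far apart. The share recovered for genes with such a gap was not tested.

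Names came from the study's text and sheets. They cover 1041 (37.9%) of the LD-higher and 87 (9.06%) of the SD-higher DEGs. Lists and named genes were drawn from loci with such a name. SD-higher DEGs are therefore less covered by them than LD-higher DEGs. Lists were word searches of these annotations; the glutathione, kinase and transcription factor lists came from modules the study found higher in LD, and the terpene, hormone and P450 lists from these and other sheets. Only part of each module's sheet was used here. Genes were named by rule: clock genes, fertility genes, up to 2 called members per list and direction, extremes of fold change, lowest p of the contrast between times, and called hub genes. Of 162 such genes, those that only repeated a pattern are not printed, and a few list members (*OsMST8*, *Wx*, *Lsi6*, *OSC4*, LOC_Os06g38510) were added after their values were seen. Members and lists were chosen with earlier results of these data known.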

Additional observations from a re-analysis of the deposited data

Results flagged for a closer look

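The results below stand out because the SD–LD difference at 04:00 differed from that at other times by a test of the difference itself, in edgeR's fit of 24 libraries. By gene counts these were 7278 genes against the mean of the other 5 times, 7 against 00:00 and 2850 against 08:00.

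Among the clock and light genes, 6 shifted toward SD at 04:00 on the log2 scale. They were *OsGI* by 1.30 (SE 0.23, adjusted p = 0.00161), *OsFKF1* by 1.14 (SE 0.30, adjusted p = 0.0118), *OsPRR37* by 1.03 (SE 0.22, adjusted p = 0.00367), *OsPRR73* by 0.91 (SE 0.15, adjusted p = 9.69e-04), *OsTOC1/OsPRR1* by 0.66 (SE 0.20, adjusted p = 0.0245) and *OsZTL1* by 0.56 (SE 0.17, adjusted p = 0.0206). Toward LD shifted *OsCAB1R*, by −2.56 (SE 0.28, adjusted p = 2.39e-04), and *OsCCA1/OsLHY*, by −1.85 (SE 0.28, adjusted p = 6.22e-04). Without 12:00 among the other times, the shift was −2.51 (adjusted p = 0.00287) for *OsCAB1R*, −1.43 (adjusted p = 0.00819) for *OsCCA1/OsLHY* and 1.18 (adjusted p = 0.00911) for *OsGI*, whereas *OsFKF1*, *OsTOC1/OsPRR1* and *OsZTL1* no longer passed, with adjusted p = 0.0607, 0.0702 and 0.0689.

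The annotated genes with the lowest p toward SD included 3 of the mitochondrial membranes. The inner membrane translocase subunit LOC_Os08g42380 shifted by 1.59 (SE 0.22, adjusted p = 4.99e-04), and the outer membrane porins LOC_Os01g16910 and LOC_Os03g20750 by 1.43 (SE 0.20, adjusted p = 5.02e-04) and 0.97 (SE 0.15, adjusted p = 8.20e-04). The first had 39.4 and 38.0 CPM in SD anthers and 10.5 and 14.7 CPM in LD anthers at 04:00 and was called higher in SD. A transporter gene (LOC_Os03g03680) shifted by 2.61 (SE 0.38, adjusted p = 5.76e-04), a sterol glucosyltransferase gene (LOC_Os01g64750) by 1.33 (SE 0.20, adjusted p = 6.27e-04), and an MscS-like channel gene (LOC_Os02g44770) by 1.74 (SE 0.25, adjusted p = 5.25e-04). At 12:00 the log2 fold change of the last was −6.79, and without that time its shift was 0.61 (adjusted p = 0.109).

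Toward LD the lowest p was that of an endoglucanase (LOC_Os08g29770), which shifted by −2.20 (SE 0.18, adjusted p = 4.79e-05). Its log2 fold change was 0.95 at 08:00, 4.59 at 12:00 and −0.49 at 04:00, and without 12:00 the shift was −1.48 (adjusted p = 0.00287). A potassium transporter (LOC_Os07g48130) shifted by −1.45 (SE 0.16, adjusted p = 2.63e-04), a citrate transporter (LOC_Os02g57620) by −1.53 (SE 0.17, adjusted p = 2.63e-04), another transporter (LOC_Os07g05640) by −1.64 (SE 0.19, adjusted p = 2.63e-04), and the oligopeptide transporter *OsOPT7* (LOC_Os03g54000) by −1.53 (SE 0.18, adjusted p = 2.63e-04). Of these only *OsOPT7* was a DEG at 04:00, with 14.9 and 17.0 CPM in SD anthers and 41.3 and 34.8 CPM in LD anthers.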

How the results depend on the processing

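The 3709 DEGs at 04:00 (960 higher in SD, 2749 higher in LD) were within 1.5 times of that count with DESeq2 (3349), RLE size factors, library totals (3865), both other filters, the fit of 24 libraries and the replicate block (3099, 789 and 2310 by direction), except that library totals gave 1634 higher in SD. A test against a 2-fold change gave 763 (69 and 694), and no fold threshold gave 7053 (2875 and 4178). Leaving out one library gave 689 to 4178 DEGs, 61 to 1185 higher in SD and 628 to 2993 higher in LD. The low counts came without LD replicate 1 (689) and without LD replicate 2 (1190), when the spread was estimated from the SD pair alone and the lone LD sample is assumed to vary like it. No DEG changed sign under any of these settings, and 82.1% of DEGs were kept with the replicate block, 86.2% with DESeq2 and 18.4% without LD replicate 1.

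For the contrast with the mean of the other 5 times (7278), requiring a log2 difference of 1 gave 4011, leaving out 12:00, chosen after seeing the data, gave 3491, and leaving out one library of 04:00 gave 2591 (without LD replicate 1) to 5090, with 3511 without SD replicate 1. For the contrast with 00:00 (7), all genes with at least 1 count gave 1045, DESeq2 99, the replicate block 3, and leaving out one library 0 to 3. For the contrast with 08:00 (2850), all genes with at least 1 count gave 4679 and leaving out one library 488 (LD replicate 1) to 2165, with 651 without SD replicate 1 and 1762 without LD replicate 2. The cause was not tested. The replicate numbers share only a label: the deviations of replicate 1 from replicate 2 in SD and LD correlated at −0.0842 across genes. Counts of called members moved by over 1.5 times in at least one setting for 43 of 46 lists. No called gene among the 162 named genes reversed. The uncalled LOC_Os06g08380, near 0, changed sign, from a log2 SD/LD of −0.017 to 0.15 with library totals. Of the named genes, 58 lost their call in at least one setting, most often without LD replicate 1. With 18682355 counts in the shallowest library, 3 counts corresponded to 0.154 CPM, and lower levels were not resolved.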

Other observations

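Some further groups had few called members or members called in both directions. Over all genes tested 4.11% were higher in SD and 11.8% in LD. Mitochondrial carriers and translocases had 5 of 36 higher in SD and 6 in LD, with a median log2 SD/LD of −0.02 that changed sign with library totals. The outer membrane porin LOC_Os01g16910, through which metabolites cross, had 80.7 and 62.3 CPM in SD anthers and 22.1 and 27.0 CPM in LD anthers (log2 SD/LD 1.54, SE 0.18, adjusted p = 0.00450, edgeR), and a carrier (LOC_Os08g37370) went the other way, with 60.9 and 67.7 CPM in SD anthers and 179 and 182 CPM in LD anthers. Vesicle traffic proteins had 3 of 48 higher in SD and 10 in LD, among them the small GTPase gene *OsSar1d* (LOC_Os06g12090), higher in SD at 1.81, and the syntaxin *OsSYP121* (LOC_Os03g57310), higher in LD at −2.12. Of 12 chaperones and heat shock proteins 2 were higher in SD and none in LD: a chaperonin (LOC_Os06g09688), with 29.9 and 27.97 CPM in SD anthers and 5.93 and 12.8 CPM in LD anthers, and a DnaJ protein (LOC_Os05g26926), with 6.96 and 7.94 CPM in SD anthers and 3.61 and 1.21 CPM in LD anthers. Histones had 1 of 10 higher in LD and a median of 0.03. In trehalose metabolism a trehalose phosphatase (LOC_Os04g46760) was the only one of 10 called, higher in SD with 19.2 and 17.8 CPM in SD anthers and 7.06 and 10.1 CPM in LD anthers.

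Other lists were drawn wholly or in part from a pair of gene modules, magenta and turquoise, that were picked as higher in LD in these libraries, a choice that favours that direction, and only part of each module was used. There 22 of 47 hormone genes were higher in LD, among them the auxin-responsive *OsIAA1* (LOC_Os01g08320), with 35.1 and 42.7 CPM in SD anthers and 188 and 171 CPM in LD anthers. Of 28 glutathione S-transferases and peroxidases 19 were higher in LD, of 88 kinases and phosphatases 28, of 61 transcription factors 21, and of 7 tested terpene synthase genes 6. A bHLH gene (LOC_Os01g50940) had 8.86 and 9.43 CPM in SD anthers and 52.2 and 52.3 CPM in LD anthers, and an ent-kaurene synthase (LOC_Os04g09900) had 0.179 and 0.154 CPM in SD anthers and 9.59 and 6.92 CPM in LD anthers. Cytochrome P450 genes, drawn from these modules and other sheets, had 29 of 45 higher in LD and 1 in SD. Remaining lists had 8 of 22 MATE efflux proteins, 4 of 18 beta-1,3-glucanases, 4 of 14 phosphate, sulfate and silicon transporters, 3 of 10 calcium transport genes, 3 of 21 cellulose and callose synthases and 2 of 14 proton pumps higher in LD, with 1 MATE protein higher in SD. The LD shares of the cellulose and callose, proton pump and fatty acid synthesis lists were near the 11.8% of all genes tested. Fatty acid synthesis and desaturation had 2 of 16 in LD and 1 in SD, an acyl carrier protein gene (LOC_Os09g36860) with 238 and 162 CPM in SD anthers and 98.1 and 89.5 CPM in LD anthers.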
